A study of Homo sapiens with 6 samples.

Results

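The FOXA pioneer factors are the forkhead transcription factors FOXA1, FOXA2 and FOXA3, and all 3 were found by gene identifier among the 60671 identifiers counted in each library. They were chosen as a family from their normalized counts (CPM, reads per gene put on one library size for all samples) in the 3 DMSO and the 3 AZD7762 samples. Their differences between the treatments are therefore given as a description, without a test. EndoC-βH1 is a human β cell line obtained from fetal pancreas by transformation with SV40 large T antigen and telomerase, and it is labelled as wild type in both groups. One group received 1 µM AZD7762, an inhibitor of the checkpoint kinases CHEK1 and CHEK2, and the other received the vehicle DMSO, with 3 samples each. Before harvest, 0.5 mM glucose was given for 1 h as starvation, and the cells were then stimulated for 1 h at 0.5 or 20 mM glucose with compound or vehicle present throughout, and the labels do not say which of these glucose concentrations was used for these libraries. The samples come from a line rather than from several donors, and the methods call in vitro replicates independent in general without saying what was separate for these libraries, so p-values measure the spread between these samples, which may be technical in part.

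FOXA proteins bind DNA through a winged-helix forkhead domain and are called pioneer factors because they can bind their sites in closed chromatin and open it for other factors. FOXA1 and FOXA2 act together in the endoderm from which pancreas and liver arise, and FOXA2 is needed in mature β cells for genes of glucose sensing and insulin release. FOXA3 is best known from liver and gut, where it acts on metabolic genes.

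The promoters of FOXA1 and FOXA3, which were both lower on average with AZD7762, were taken from RefSeq for GRCh38.p14, as 250 bases before to 50 after the transcription start. They are shown to let their base composition and motif content be compared, and no FOXA2 promoter is printed. Capitals mark a match on either strand to the forkhead motif TGTTTAC, to its variants with other letters inside (TATTTAC for one and, for the other, TGTTTGC), or to the TATA box, spelled TATAAA, and none of these motifs overlaps another in these windows. TGTTTGC and TATAAA were added after the sequences had been seen. The FOXA1 window lies at chr14:37595200-37595499 on the minus strand and the FOXA3 window at chr19:45864076-45864375 on the plus strand.
FOXA1: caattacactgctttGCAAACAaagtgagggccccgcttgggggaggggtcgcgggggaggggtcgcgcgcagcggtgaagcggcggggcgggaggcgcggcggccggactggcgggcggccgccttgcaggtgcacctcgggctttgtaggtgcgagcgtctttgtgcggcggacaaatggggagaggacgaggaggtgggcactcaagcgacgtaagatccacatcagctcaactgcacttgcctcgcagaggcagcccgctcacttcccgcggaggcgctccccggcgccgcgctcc
FOXA3: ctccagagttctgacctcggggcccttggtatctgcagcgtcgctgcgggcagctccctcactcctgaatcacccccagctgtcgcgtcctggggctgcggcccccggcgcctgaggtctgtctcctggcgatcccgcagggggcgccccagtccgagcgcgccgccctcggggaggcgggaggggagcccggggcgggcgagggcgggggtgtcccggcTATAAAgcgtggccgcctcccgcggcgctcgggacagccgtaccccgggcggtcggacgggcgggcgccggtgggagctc
The FOXA1 window held TGTTTGC in the reverse orientation, starting 235 bases before the start site, a word found in 3.89% of 35116 promoter windows. The FOXA3 window held TATAAA 30 bases before the start site, as did 11.5% of all windows anywhere in their length. Neither window held TGTTTAC (3.42% of windows) or TATTTAC (2.67%). GC content was 69.3% for FOXA1 and 76.3% for FOXA3, against a median of 58.7% over all windows and a middle range of 47 to 68%. The GC box GGGCGG, on either strand and not capitalized, occurred 2 times in the FOXA1 window and 5 times in the FOXA3 window, and 45.0% of windows held it.

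The libraries held between 20486391 and 29402440 counts on genes, and the detection floor of 3 counts was worth 0.102 to 0.146 CPM, a limit that covers counting error only. Of the genes with counts, 17649 passed the filter on low counts and were tested, the 3 FOXA genes among them. Markers of β cells summed to between 14400 and 19410 TPM (counts per exon length, scaled to a common total) over the 6 samples, and all 12 were detected. Of 5 acinar markers, 4 had no count in any sample, CPA1 being the exception, and of 5 hepatocyte markers 4 stayed under 1 TPM. The 4 markers of endothelium and leukocytes that were matched summed to at most 0.203 TPM. CD68 is among them, and 81.6% of its exonic bases are shared with another gene of the same strand. The effect of this on its count was not tested. Somatostatin, the δ cell hormone, and transthyretin, which α cells and liver make, were abundant, so that the δ and α cell lists summed to at least 1523 and 3428 TPM, while glucagon had 2.51 TPM with DMSO. Ductal markers summed to between 44.3 and 54.6 TPM, nearly all from KRT19, with the other 4 of 5 under 1 TPM, and mesenchyme markers to between 7.10 and 9.72 TPM.

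FOXA2 was by far the most abundant of the 3 transcripts and was higher with AZD7762. FOXA2 (ENSG00000125798) lies on chromosome 20 of GRCh37 from 22561636 to 22566093 on the minus strand, and none of its 2719 exonic bases overlaps another annotated gene. It had 399.8, 381.7 and 413.8 normalized CPM in DMSO replicates 1, 2 and 3, and 522.0, 534.2 and 531.7 in AZD7762 replicates 1, 2 and 3. Every AZD7762 sample lay above every DMSO sample, with a gap between 413.8 and 522.0. The means were 398.5 ± 16.1 and 529.3 ± 6.46 CPM (SD, n = 3 in each group), a mean higher by 32.8%, and the fitted log2 fold change was 0.41 with a standard error of 0.0579. Its counts per library ran from 8635 to 13129, so that counting alone gives a coefficient of variation (CV) between 0.873% and 1.08%. The observed CV was 4.04% with DMSO and 1.22% with AZD7762. FOXA2 transcripts have 59.1% GC. With trends of GC content and length taken out of each library, the log2 fold change of FOXA2 was 0.34 with a standard error of 0.0508.

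Other measures separated the same samples. Mitochondrial genes took 1.57, 2.13 and 2.12% of the counts in DMSO replicates 1 to 3 and 2.26, 2.28 and 2.63% in AZD7762 replicates 1 to 3, so that every AZD7762 library was higher. The summed δ cell markers lay between 1523 and 1711 TPM with DMSO and between 1730 and 1854 with AZD7762. Most of that sum was somatostatin (1507 TPM with DMSO). HHEX, RBP4 and LEPR overlapped between the groups, with log2 fold changes of -0.19, 0.12 and -0.08. The acinar markers lay between 31.5 and 33.9 TPM with DMSO and between 35.3 and 38.6 with AZD7762, with 4 of 5 at 0. The markers that follow were chosen after their values were seen. Somatostatin (SST) had 214.5 ± 12.4 and 253.6 ± 11.5 CPM without overlap (log2 fold change 0.24, adjusted p = 0.160, edgeR), and CPA1, a digestive carboxypeptidase, had 21.8 ± 0.827 and 25.7 ± 1.57 CPM, also without overlap (log2 fold change 0.24, adjusted p = 0.308, edgeR). COL1A2, a collagen chain, had 2.92 ± 0.275 and 4.36 ± 0.403 CPM without overlap (log2 fold change 0.58, adjusted p = 0.125, edgeR). NEUROD1, a β cell marker, was lower without overlap, with 1384 ± 36.7 CPM with DMSO and 1179 ± 49.2 with AZD7762 (log2 fold change -0.23, adjusted p = 0.182, edgeR). The β cell markers PDX1, NKX6-1 and MAFA were higher without overlap. INS, CHGA, PCSK1 and ABCC8 overlapped between the groups, with log2 fold changes of 0.16, 0.11, 0.07 and 0.03. IAPP, NKX2-2 and PAX6 also overlapped, with -0.004, -0.02 and -0.09. Of all genes tested, 15% had no overlap between the groups in either direction. The summed β cell, mesenchyme, ductal and α cell markers overlapped between the groups. The part of these measures in the difference of FOXA2 was not tested.

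FOXA1 was a low transcript with a lower mean with AZD7762. FOXA1 (ENSG00000129514) lies on chromosome 14 of GRCh37 from 38058757 to 38065264 on the minus strand, and 0.363% of its exon length overlaps TTC6 on the opposite strand. It had 8.73, 7.95 and 8.58 normalized CPM in DMSO replicates 1 to 3 and 7.87, 7.13 and 6.99 in AZD7762 replicates 1 to 3. All AZD7762 samples lay below all DMSO samples, but the lowest DMSO value, 7.95, and the highest AZD7762 value, 7.87, nearly touched. The means were 8.42 ± 0.418 and 7.33 ± 0.475 CPM (SD, n = 3 in each group), and the log2 fold change was -0.20 with a standard error of 0.104. Its 149 to 258 counts per library carry a counting CV between 6.23% and 8.19%, and the observed CVs of 4.97% and 6.48% were no larger than that, so that the spread between replicates cannot be told from counting error at this depth.

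FOXA3 overlapped between the groups. FOXA3 (ENSG00000170608) lies on chromosome 19 of GRCh37 from 46367247 to 46377055 on the plus strand, without exonic overlap with another gene. It had 8.43, 6.66 and 9.44 normalized CPM in DMSO replicates 1 to 3 and 7.04, 7.18 and 6.94 in AZD7762 replicates 1 to 3. The AZD7762 samples were close together and lay inside the range of the DMSO samples, above DMSO replicate 2 in 3 of 3 cases. The means were 8.18 ± 1.41 and 7.05 ± 0.118 CPM (SD, n = 3 in each group), and the log2 fold change was -0.21 with a standard error of 0.130. Its 148 to 249 counts per library carry a counting CV between 6.34% and 8.22%, and the observed CVs were 17.2% with DMSO and 1.7% with AZD7762. The AZD7762 value is below counting error, so the closeness of these samples cannot be read as a small true spread. Without DMSO replicate 3 the log2 fold change was -0.10, and without DMSO replicate 2 it was -0.34. DMSO replicates 3 and 2 also differed in genes of high GC content, and the part of this in the values of FOXA3 was not tested. Over the tenth of genes with the most GC, the mean deviation from the average log2 CPM was 0.21 in DMSO replicate 3 and -0.19 in DMSO replicate 2, and FOXA3 transcripts have 60.1% GC. With trends of GC content and length taken out of each library, the log2 fold change of FOXA3 was -0.29 with a standard error of 0.111.

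**Figure D1:**
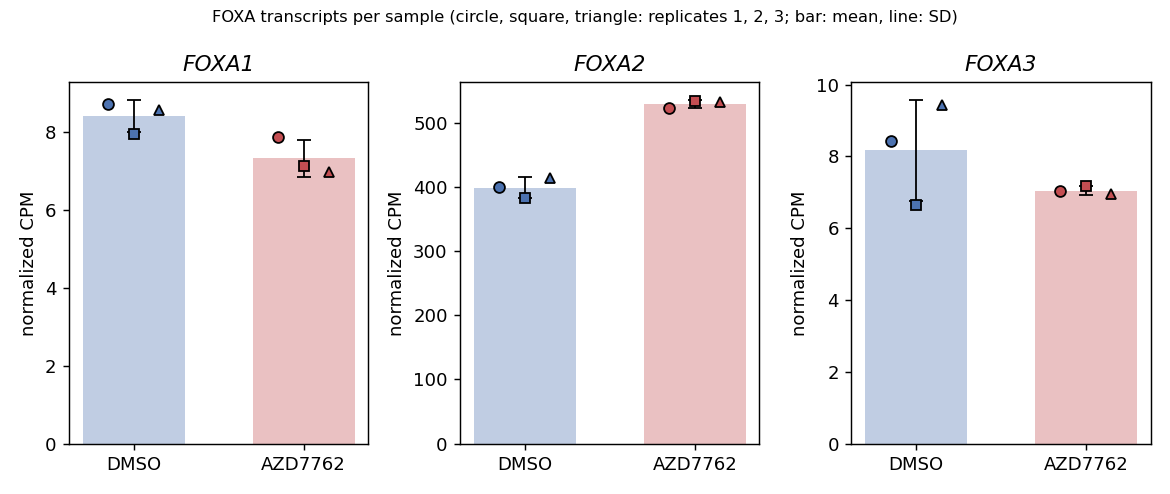
Normalized CPM (vertical axes, from 0, a separate scale for each gene) of FOXA1, FOXA2 and FOXA3 in the DMSO and AZD7762 samples; symbols are replicates 1, 2 and 3, bars the mean and lines the SD of 3 samples. FOXA2 sits between 381.7 and 413.8 with DMSO and between 522.0 and 534.2 with AZD7762, while FOXA1 and FOXA3 stay under 10 CPM in all 6 samples.

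Across all 17649 genes tested, 8.25% had all AZD7762 samples below all DMSO samples, as FOXA1 did, and 6.79% had them all above, as FOXA2 did, which makes 15% without overlap in either direction. The median log2 fold change of all genes tested was 0.00756 and the median size 0.0906. In absolute terms the mean of FOXA2 differed by 130.8 CPM between the groups, that of FOXA1 by -1.09 CPM and that of FOXA3 by -1.12 CPM (AZD7762 minus DMSO). Bulk RNA cannot tell a change in every cell from a change in the share of cells that carry a transcript.

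Levels of different genes were compared per length, in TPM from the union of exons, and within samples. FOXA2 had 625.0 ± 25.4 TPM with DMSO, FOXA3 16.4 ± 2.83 and FOXA1 8.13 ± 0.399 (SD, n = 3). FOXA2 therefore made up 96.2 ± 0.337% of the summed FOXA TPM with DMSO and 97.5 ± 0.0808% with AZD7762. The order FOXA2, FOXA3, FOXA1 held in each of the 6 samples. The ratio of FOXA2 to FOXA1 was 74.3, 78.0 and 78.3 in DMSO replicates 1 to 3 and 107.6, 121.7 and 123.5 in AZD7762 replicates 1 to 3, without overlap. The ratio of FOXA2 to FOXA3 was 38.7 ± 5.47 with DMSO and 58.7 ± 1.04 with AZD7762 (SD, n = 3), again without overlap. FOXA3 exceeded FOXA1 by a similar ratio in both groups, 2.01 ± 0.273 with DMSO and 2.00 ± 0.128 with AZD7762. These ratios follow from the values that chose the family and carry no test.

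Among all genes with a count, FOXA2 ranked between 131 and 158 by TPM in the DMSO samples and between 87 and 107 in the AZD7762 samples, out of at least 26195 genes per sample. FOXA3 ranked between 8269 and 9506 and FOXA1 between 11073 and 11914 over the 6 samples. Of 44 forkhead genes looked up, 10 had no count in any sample and 22 had a mean of at least 1 TPM with DMSO. FOXA2 was the highest of them in each group, 3.44 times the next with DMSO and 4.12 times with AZD7762. It accounted for 40.7% of the summed forkhead TPM with DMSO and 47.3% with AZD7762. The ranks, the lead over the next gene, the share and the places below all rest on union exon lengths. These were 2719 bases for FOXA2, 8078 for FOXP4 and 16537 for FOXP2. In normalized CPM with DMSO, FOXA2 had 398.5, FOXP4 344.4 and FOXP2 304.7. The forkhead order was not examined with the longest transcript as gene length. FOXP4 with 181.9 ± 25.2 and FOXM1, a cell cycle regulator, with 159.6 ± 3.31 TPM came next with DMSO, and the lowest FOXP4 sample (164.3) exceeded the highest FOXM1 sample (163.4) by little. FOXA3 stood at place 16 with DMSO, where its range of 13.4 to 19.0 TPM overlapped those of FOXO4 (15.2 to 15.4) and FOXD1 (12.8 to 15.4). FOXA1 stood at place 20, with 7.68 to 8.43 TPM beside 8.03 to 8.75 for FOXP3, and these ranges overlapped with DMSO. Within samples, FOXA3 exceeded FOXD1 in 3 of 3 DMSO samples, by 0.580 to 3.51 TPM, and FOXO4 in 2 of 3. Of the exonic bases of FOXD1, 79.0% are shared with another gene of the same strand and 14.8% with an antisense gene. For FOXP3, 12.4% are shared with genes of the same strand. The part of these overlaps in the levels of FOXD1 and FOXP3 was not tested. FOXP3 exceeded FOXA1 in 3 of 3 DMSO samples, by 0.106 to 0.453 TPM, and in 3 of 3 AZD7762 samples, by 1.43 to 1.66 TPM.

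**Figure D2:**
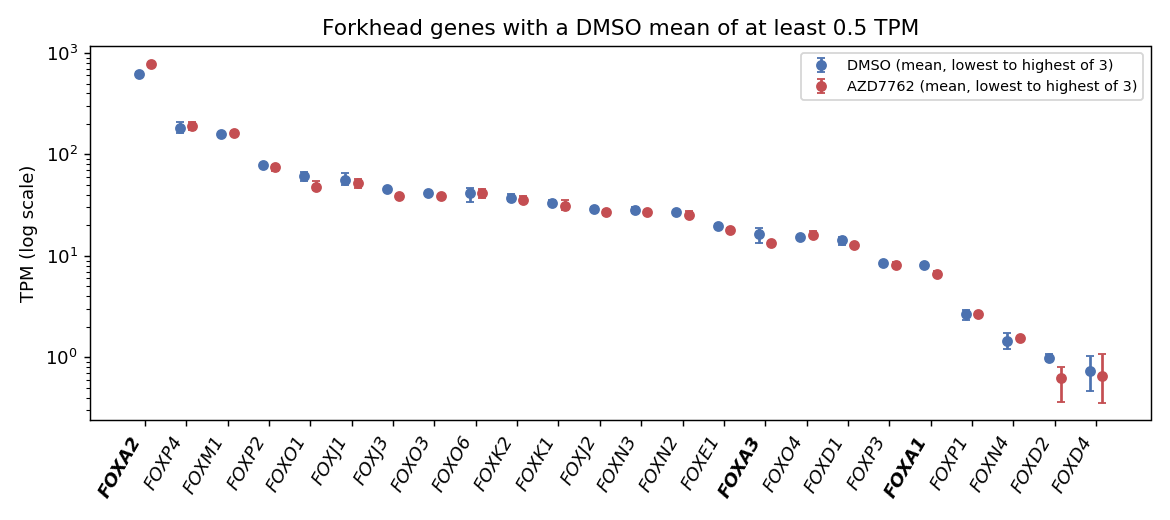
TPM on a log axis for the forkhead genes with a DMSO mean of at least 0.5 TPM, ordered by that mean; points are means and bars run from the lowest to the highest of 3 samples in each group. FOXA2 stands above all others at 625.0 TPM with DMSO, and FOXA3 and FOXA1 lie at places 16 and 20.

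The level of FOXA2 was set beside those of 3 islet factors, chosen after the values were seen. NEUROD1, a basic helix-loop-helix factor of endocrine cells, had 719.3 ± 18.1 TPM with DMSO, with a lowest sample (707.6) above the highest FOXA2 sample (649.9). The range of FOXA2, 599.0 to 649.9, overlapped that of ISL1, a LIM homeodomain factor, at 591.5 to 609.8 TPM. PDX1, a master regulator of pancreas and β cells, had 574.5 ± 11.9 TPM with a highest sample of 585.1, below the lowest FOXA2 sample. With the longest transcript as gene length, FOXA2 had 494.3, 476.7 and 518.2 TPM in DMSO replicates 1 to 3. Its order beside these islet factors was not examined at that length. With AZD7762, the lowest FOXA2 sample (764.4) exceeded the highest of NEUROD1 (608.7), ISL1 (587.7) and PDX1 (586.3). The order beside NEUROD1 depends on the gene lengths used, with union exons of 8208 bases for NEUROD1 and 2719 for FOXA2. In normalized CPM, which do not divide by length, NEUROD1 had a mean of 1179 with AZD7762 and FOXA2 529.3. NEUROD1 was itself lower with AZD7762, at 579.6 ± 27.8 TPM, so that both it and FOXA2 differed between the groups. In normalized CPM its log2 fold change was -0.23 (adjusted p = 0.182, edgeR), without overlap.

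The other forkhead genes asked whether the rest of the family differed between the same samples. Genes were called where the p of edgeR's quasi-likelihood test, adjusted by Benjamini-Hochberg over all genes, was under 0.05, which took in 0.708% of genes (125 of 17649). Of all genes tested, 0.357% were called higher with AZD7762 and 0.351% lower, and 9.68% had an unadjusted p under 0.05. Of 41 other forkhead genes, 20 were tested and 0 were called by edgeR, with 2 at an unadjusted p under 0.05 and 0 called by DESeq2. Their log2 fold changes ran from -0.55 to 0.21 with a median of 0.00505, and 11 of 20 were positive. FOXO1, a forkhead factor restrained by insulin signalling, had 84.6 ± 8.22 CPM with DMSO and 71.2 ± 7.92 with AZD7762 (log2 fold change -0.25, adjusted p = 0.364, edgeR), and 22.7% of its exonic bases lie within another gene of the same strand. FOXJ3 had 74.3 ± 1.64 and 66.2 ± 2.83 CPM (log2 fold change -0.17, adjusted p = 0.365, edgeR), with all AZD7762 samples lower. FOXO4, FOXP4 and FOXM1 had log2 fold changes of 0.16, 0.15 and 0.10, and the smallest of their adjusted p in edgeR's test was 0.591. FOXP4 had 0.07 without DMSO replicate 2, 0.27 without DMSO replicate 3 and 0.08 without AZD7762 replicate 3, and FOXO4 had 0.10 without AZD7762 replicate 3. With the GC content and length trends taken out, FOXP4 had 0.09 and FOXM1 0.06.

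Genes described as dependent on FOXA1 or FOXA2 in islets were taken as a list of 10, all of which were tested. One, MAFA, was called in edgeR's test, a share of 10% beside 0.708% of all genes. The list was chosen with earlier results of these data known, so that this share of 1 gene is a description and no test of the list. The median log2 fold change of the list was 0.0286, which was 0.0964 without DMSO replicate 3. MAFA, a β cell factor that activates the insulin gene, had 15.3, 15.4 and 21.2 CPM in DMSO replicates 1 to 3 and 40.7, 36.1 and 44.6 in AZD7762 replicates 1 to 3. It rose from 17.3 ± 3.41 to 40.4 ± 4.25 CPM (SD, n = 3 in each group), and its log2 fold change was 1.24 with a standard error of 0.122 (adjusted p = 0.000133, edgeR). NKX6-1, which maintains β cell identity, had 204.0 ± 12.1 and 227.0 ± 3.77 CPM without overlap between the groups (log2 fold change 0.15, adjusted p = 0.423, edgeR). PDX1 had 350.7 ± 6.76 and 374.2 ± 8.43 CPM, also without overlap (log2 fold change 0.09, adjusted p = 0.632, edgeR). G6PC2, the islet glucose-6-phosphatase, and ISL1 had log2 fold changes of -0.04 and -0.00594. The genes of the KATP channel, ABCC8 and KCNJ11, had 0.03 and -0.00964, and the fatty acid oxidation enzyme HADH had 0.03, each less than its standard error. With the GC content and length trends taken out, NKX6-1 had 0.10 and PDX1 0.02, and without scaling the median of the list was -0.00657.

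Liver genes from which FOXA factors were first described formed a list of 15, of which 6 were tested and 0 called by edgeR, with 1 at an unadjusted p under 0.05 and 0 called by DESeq2. Their median log2 fold change was 0.07, and 0.03 without scaling. Transthyretin (TTR), a thyroid hormone carrier, was the most abundant with 1863 ± 160.8 CPM with DMSO and 2043 ± 137.7 with AZD7762 (log2 fold change 0.13, which was 0.07 without DMSO replicate 3, adjusted p = 0.639, edgeR). SERPINA1, which encodes α1-antitrypsin, had 30.1 ± 2.00 and 34.4 ± 1.65 CPM, with all AZD7762 samples higher (log2 fold change 0.19, adjusted p = 0.422, edgeR). CPT1A, which admits fatty acids to mitochondria, and APOB, the protein of low density lipoprotein, had log2 fold changes of -0.02 and 0.00255.

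Endoderm factors, which work beside FOXA in pancreas and liver development, were 12 in the list. Of these 8 were tested and 0 called by edgeR, with 1 at an unadjusted p under 0.05 and 0 called by DESeq2, and the median log2 fold change was -0.07, which was -0.03 without DMSO replicate 3 and -0.02 without AZD7762 replicate 1. RFX6, which is needed for islet cells to form, had 157.6 ± 10.2 CPM with DMSO and 135.0 ± 6.43 with AZD7762, with all AZD7762 samples lower (log2 fold change -0.22 with a standard error of 0.0656, adjusted p = 0.234, edgeR). HHEX and PROX1, homeodomain factors of early pancreas and liver, had log2 fold changes of -0.19 and -0.12. HHEX had -0.11 without DMSO replicate 1, -0.32 without DMSO replicate 2 and -0.12 without AZD7762 replicate 3. PROX1 had -0.07 without DMSO replicate 3, -0.04 without AZD7762 replicate 1 and -0.19 without AZD7762 replicate 2. GATA4, a zinc finger factor of early endoderm, had -0.02.

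Proteins known to bind or modify FOXA factors made a list of 12, with 9 tested and 0 called by edgeR, 1 at an unadjusted p under 0.05 and 0 called by DESeq2. The median log2 fold change was 0.03, and 7 of 9 were positive, but the median ranged from 0.00450 to 0.09 with 1 sample left out and was -0.00377 without scaling. TLE5, TLE2 and TLE3, members of the Groucho family of corepressors, had log2 fold changes of 0.18, 0.17 and 0.16, and the smallest of their adjusted p in edgeR's test was 0.465. TLE2 had 0.04 without DMSO replicate 2, 0.27 without DMSO replicate 3 and 0.08 with the GC content and length trends taken out. TLE3 had 0.10 without DMSO replicate 2 and 0.09 without AZD7762 replicate 2, and TLE5 0.11 without AZD7762 replicate 1. Of the exonic bases of TLE5, 10.8% are shared with an antisense gene. AKT1, a kinase of insulin signalling of a family that phosphorylates FOXA2, had 400.5 ± 19.7 and 435.7 ± 14.8 CPM (log2 fold change 0.12, adjusted p = 0.558, edgeR). NR3C1, the glucocorticoid receptor, had a log2 fold change of -0.02.

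The genes next to the FOXA genes were examined because LINC00261, a long noncoding RNA, lies 2355 bases from FOXA2 on the same strand of chromosome 20 (22528301 to 22559280 in GRCh37). LINC00261 had 213.8, 229.6 and 221.9 CPM in DMSO replicates 1 to 3 and 201.4, 204.8 and 215.4 in AZD7762 replicates 1 to 3, so that AZD7762 replicate 3 exceeded DMSO replicate 1. The means were 221.8 ± 7.90 and 207.2 ± 7.29 (log2 fold change -0.10 with a standard error of 0.0578, adjusted p = 0.631, edgeR), opposite in sign to FOXA2. LINC01747, on the other side of FOXA2, had 3 counts in all samples together. Near FOXA1, MIPOL1 and TTC6 had log2 fold changes of -0.11 and 0.01, and MIPOL1 was lower in all AZD7762 samples, without overlap. Near FOXA3, SYMPK, IRF2BP1 and MYPOP had 0.14, 0.12 and 0.23, all positive while FOXA3 was negative, and MYPOP did not overlap between the groups. SYMPK had 0.08 without DMSO replicate 1, 0.23 without DMSO replicate 3 and 0.06 without AZD7762 replicate 3, and IRF2BP1 had -0.00235 without DMSO replicate 2 and 0.31 without DMSO replicate 3. With the GC content and length trends taken out, IRF2BP1 had 0.02, MYPOP 0.11 and MIPOL1 -0.05. SNORA42 and ENSG00000269148 had 1 count each. Of 13 neighbours, 11 were matched to the files, 6 were tested and 0 were called by edgeR or DESeq2, with 0 at an unadjusted p under 0.05.

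**Figure D3:**
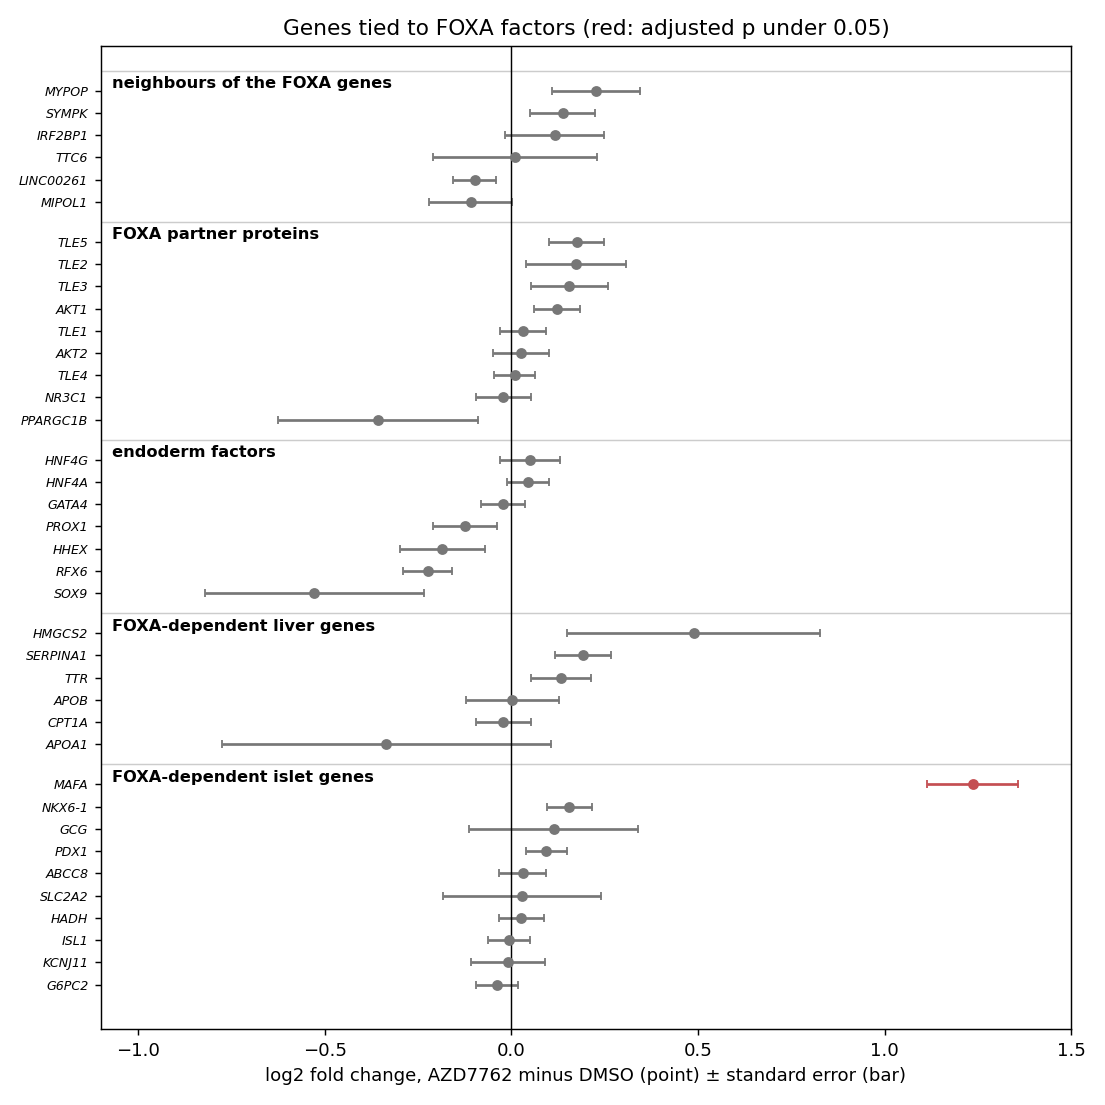
Log2 fold change (AZD7762 minus DMSO, horizontal axis) with its standard error for 7 of the 8 tested endoderm factors and each tested gene of 4 other lists tied to FOXA factors; each row is a gene and red marks an adjusted p under 0.05. MAFA, at 1.24, is the 1 red point, and the remaining genes lie between -0.53 and 0.49.

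The genes whose profile was most like that of each FOXA gene were found by Pearson's r of log2 CPM over the 6 samples, among 13877 genes, as a description. The 6 samples fall into the treatment groups, so r includes the difference between them. For FOXA2 these were ARC (r = 0.998), RASD1 (0.994) and LRRC10B (0.994), and 79 genes exceeded 0.95. ARC, an activity-regulated gene best known from neurons, had 11.8 ± 2.10 CPM with DMSO and 30.7 ± 0.805 with AZD7762, and RASD1, a Ras-like G protein induced by dexamethasone, had 14.0 ± 1.78 and 30.4 ± 1.54. For FOXA1 they were MOCS3 (0.991), CNEP1R1 (0.988) and RTCA (0.983), with 18 genes over 0.95. For FOXA3 they were ENSG00000277534 (0.991), CEBPA (0.975) and C11orf87 (0.966), with 8 genes over 0.95. CEBPA, a liver and fat cell factor, had 18.8 ± 2.72 and 16.9 ± 0.517 CPM, with a wider spread in the DMSO samples. FOXA3 also showed this, but CEBPA was picked for its likeness to FOXA3, whose spread with AZD7762 was below counting error.

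The direction of each FOXA gene was examined under other processing choices. FOXA2 had a log2 fold change between 0.34 and 0.44 over 14 alternatives, and the lowest values came from removing trends of GC content and length from each library. FOXA1 ranged from -0.26 to -0.16 and FOXA3 from -0.34 to -0.10, and neither changed sign in the alternatives run.

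**Figure D4:**
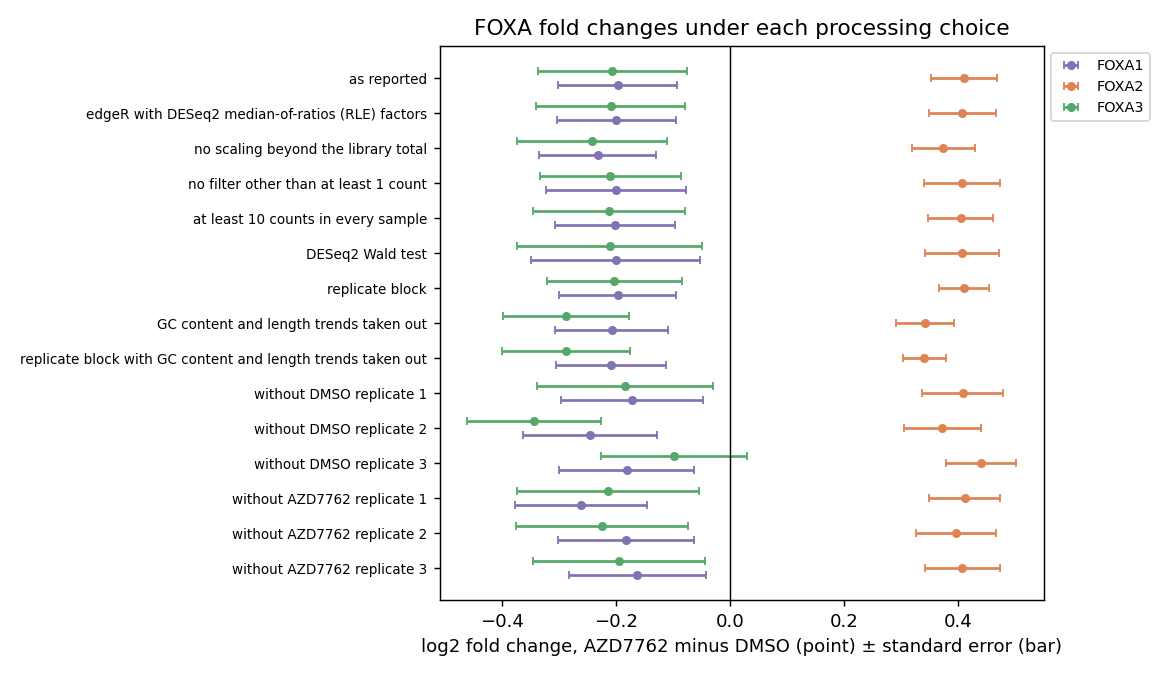
Log2 fold change (AZD7762 minus DMSO, horizontal axis) with its standard error for FOXA1, FOXA2 and FOXA3 under the reported settings and each of 14 alternatives (rows). FOXA2 stays between 0.34 and 0.44, and FOXA1 and FOXA3 stay below 0, with FOXA3 at -0.10 when DMSO replicate 3 is left out.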

How the data were processed

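Polyadenylated RNA of 6 samples was sequenced. The authors checked the reads with FastQC 0.10.1, trimmed them with cutadapt 1.18, aligned them to GRCh37 and counted them per gene with HTSeq-count. The aligner, annotation release and strand setting are not given in the sources used here, and 2 library kits, of which 1 keeps strand, are named without assignment to samples. The deposited files hold raw counts for 60671 identifiers per sample, without filter or scaling. Groups came from the sample titles. Symbols, GRCh37 positions and exon lengths came from GENCODE v44 lifted to GRCh37, matching 58646 identifiers, and promoters from RefSeq (GRCh38.p14). PECAM1 was not matched.

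In R 4.3.3, genes were filtered with filterByExpr and scaled with TMM factors (0.983 to 1.02). AZD7762 was compared with DMSO by edgeR 4.0.16 (glmQLFit, two-sided quasi-likelihood test, treatment as the only term), adjusted by Benjamini-Hochberg over 17649 genes, with a threshold of 0.05. Normalized CPM are counts over the scaled library total. TPM were not TMM-scaled. They were used to compare genes within samples and by their ranges within a group, and marker sums, shares and ranks in TPM were also set side by side between the groups. A standard error is the absolute log2 fold change over the square root of F. DESeq2 1.42.0 was an alternative. The procedures were tested on simulated data.

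The FOXA genes and the lists were chosen with earlier results of these data known. Named from each list were called genes, the 4 largest log2 fold changes where the mean log2 CPM was 1 or more, and the 2 highest by TPM. Neighbours with a count, and the 3 genes most correlated with each FOXA gene (prior count 2), were also named. ABCC8, KCNJ11 and HADH are islet list members named beyond this rule. Values of some list members are not reported here, while list counts and medians include them. Replicates of a group were not copies of each other (chi-square of at least 4.84 per gene).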

Additional observations from a re-analysis of the deposited data

How the results depend on the processing

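Alternatives were planned for scaling, filter, test, replicate number, GC content and length, left-out samples, gene length and promoter motif. The 3 FOXA genes kept their sign in all 14. FOXA2 (0.41) had a log2 fold change of 0.34 after correction for GC content and length, with and without the replicate block, and from 0.37 to 0.44 with 1 sample left out. FOXA1 lay between -0.26 and -0.16 and FOXA3 between -0.34 and -0.10 with 1 sample left out.

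Against 125 genes called (63 higher, 62 lower), there were 330 without a filter (149 and 181) and 259 after that correction (101 and 158). The replicate block gave 378 (181 and 197), and the block with that correction gave 458 (205 and 253). DESeq2 called 99 lower. With 1 sample left out the number lay between 77 (AZD7762 replicate 1 left out) and 168 (DMSO replicate 3 left out). Higher genes numbered 49 to 108 and lower genes 28 to 65. The cause was not tested. Same-numbered samples correlated in their deviations by 0.0533, 0.124 and 0.210, so the numbers were not taken as pairs, and not every sample correlated best with its own number. The endoderm list had 1 gene called (RFX6, higher with DMSO) with the block, with and without that correction, against 0. The TGTTTAC list had 7 called, 11 with the block, 11 with the correction, 15 with both and from 2 to 7 with 1 sample left out. The islet list's median was 0.0286 and ranged from 0.0193 to 0.0964 with 1 sample left out.

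With the longest transcript as gene length, the ratio of FOXA2 to FOXA1 was 65.5 with DMSO and 100.2 with AZD7762 (76.9 and 117.6 with union exons). That of FOXA2 to FOXA3 was 56.9 with AZD7762 (58.7), and that of FOXA3 to FOXA1 1.76 (2.00).

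Genes near 0 changed sign. APOB had -0.0328 without scaling, -0.00186 without a filter, -0.00237 with at least 10 counts in every sample, -0.0161 with the replicate block, and from -0.17 to 0.14 with 1 sample left out. NR3C1 had 0.0345 with the correction, 0.0342 with the block as well, and from -0.11 to 0.0296 with 1 sample left out. TTC6 had -0.0240 without scaling and from -0.12 to 0.18 with 1 sample left out. With 1 sample left out, IRF2BP1 ranged from -0.00235 to 0.31, CPT1A from -0.0920 to 0.0254, GATA4 from -0.0519 to 0.0143 and ISL1 from -0.0341 to 0.00650.

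The 149 to 258 counts of FOXA1 and the 148 to 249 of FOXA3 per library limit their precision to a counting CV of at least 6.23%. FOXA2 had at least 8635.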

Other observations

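Genes whose RefSeq promoter holds the forkhead motif TGTTTAC on either strand were followed as a list defined by sequence alone. Of 741 such genes in the files, 421 were tested and 7 (1.66%) were called by edgeR's quasi-likelihood test, 3 higher and 4 lower, beside 97 of 12049 (0.805%) of all tested genes with a promoter in the table. The median log2 fold change was -0.00541, against 0.0111 over those genes, and 203 of 421 were positive. With TATTTAC in place of TGTTTAC, 3 of 266 (1.13%) were called. Without AZD7762 replicate 1, DMSO replicate 2 or AZD7762 replicate 2, the TGTTTAC list had 2, 4 and 3 genes called. The 7 genes are named after their values were seen. The higher ones were JUNB, a subunit of AP-1, from 31.1 ± 12.7 to 85.0 ± 18.5 CPM (SD, n = 3 in each group; log2 fold change 1.47, adjusted p = 0.00589, edgeR), TXNIP, a glucose-induced arrestin, and ZNF331. TXNIP rose from 5.68 ± 0.967 to 9.63 ± 0.379 CPM and ZNF331 from 20.8 ± 1.16 to 36.0 ± 6.23 CPM. The lower ones were BCL2L11, which encodes the apoptosis activator BIM, CEP44, MTURN and ATOSA, with log2 fold changes of -0.30, -0.31, -0.54 and -0.42. A motif match is a description of these windows and not evidence of binding.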
